A study of Mus musculus with 8 samples.

Results

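The genes described here are 9 astroglial genes of transport and coupling: the glutamate transporters Slc1a2 and Slc1a3, the glutamine synthetase Glul, the gap junction connexins Gja1 and Gjb6, the water channel Aqp4, the membrane protein Mlc1, the potassium channel Kcnj10 and the bicarbonate cotransporter Slc4a4. They were chosen by name, 9 of 27998 genes in a single-cell table and of 55450 in a bulk table of the mouse median eminence (ME), the floor of the third ventricle where tanycytes line the wall. The choice was made with earlier results of these data known. The single-cell library pooled the ME of 10 wild-type female C57BL/6 mice, 2 months of age by the labels, and all its cells share that one source. The bulk Smart-seq2 libraries came from microdissected ME of 3 control mice, labelled WT, and 4 mutant mice, labelled Rax::BrafV600E, all C57BL/6 and 2 months of age by the labels. By the study's methods, BrafV600E, an activated form of the kinase Braf, was switched on by Rax-CreERT2, a tamoxifen-inducible Cre under Rax control, and the ME of controls and mutants alike was taken 2 months after tamoxifen induction. Those methods give tamoxifen to adult mice, so by them the bulk mice were older than 2 months at collection. What time point the labelled age of 2 months refers to was not resolved. The labels give the controls no allele beyond WT.

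Astroglial cells clear transmitter and ions from the extracellular space. Sodium-coupled carriers take up glutamate, which glutamine synthetase converts to glutamine for return to neurons, while inward-rectifying potassium channels and aquaporins at end-feet and the ventricular surface move potassium and water. Connexins join the cells into networks through which ions and metabolites spread, and tanycytes, the radial glia-like cells of the ME, are known to be coupled in this way.

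Promoters of 8 of the 9 members were matched in RefSeq (build GRCm38.p6), with a pair of start sites for Slc4a4. The 4 below show the sequence before the start of one member of each role, and both connexins, whose levels parted in tanycytes and ependymal-like cells. Capitals mark matches on either strand to 4 motifs. The GC box was searched as GGGCGG and the CCAAT box by the letters of its name. The box bound by the TATA-binding protein was searched as TATAAA. For AP-1, the dimer of Fos and Jun, the search used TGANTCA with any letter at N. No pair of matches overlapped. They lie at chr15:8710808-8711057 (minus strand, Slc1a3), chr1:172340960-172341209 (plus strand, Kcnj10), chr10:56377050-56377299 (plus strand, Gja1) and chr14:57133612-57133861 (minus strand, Gjb6), each 250 bases ending at the base before the start site.
Slc1a3: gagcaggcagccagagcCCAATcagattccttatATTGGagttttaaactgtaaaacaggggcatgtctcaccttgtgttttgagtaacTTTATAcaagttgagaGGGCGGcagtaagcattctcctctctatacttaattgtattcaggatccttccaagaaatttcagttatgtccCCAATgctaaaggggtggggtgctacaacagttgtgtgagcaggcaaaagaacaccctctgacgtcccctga
Kcnj10: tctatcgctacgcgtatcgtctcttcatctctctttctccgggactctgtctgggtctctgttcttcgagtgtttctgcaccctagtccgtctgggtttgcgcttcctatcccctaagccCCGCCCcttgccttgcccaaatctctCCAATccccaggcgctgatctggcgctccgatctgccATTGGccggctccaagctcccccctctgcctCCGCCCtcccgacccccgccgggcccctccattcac
Gja1: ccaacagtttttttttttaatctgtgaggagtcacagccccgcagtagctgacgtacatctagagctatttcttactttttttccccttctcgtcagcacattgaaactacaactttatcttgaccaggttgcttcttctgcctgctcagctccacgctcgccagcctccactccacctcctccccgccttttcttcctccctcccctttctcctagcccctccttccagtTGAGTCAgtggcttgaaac
Gjb6: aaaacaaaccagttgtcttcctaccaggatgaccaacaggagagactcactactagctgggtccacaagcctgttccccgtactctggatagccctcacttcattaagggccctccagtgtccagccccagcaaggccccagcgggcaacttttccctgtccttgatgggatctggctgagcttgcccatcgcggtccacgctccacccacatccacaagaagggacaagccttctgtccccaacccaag
Slc1a3 held 3 CCAAT boxes, 1 GC box and 1 TATA box, and Kcnj10 held 2 GC boxes and 2 CCAAT boxes. Gja1 held 1 AP-1 site and none of the others, while Gjb6 held none of the 6 motifs searched, which also included a SOX site (ACAATG) and an E-box (CAGCTG). Of 32851 promoters of this length, 32.7% held a GC box, 33.8% a CCAAT box, 12.4% a TATA box, 6.75% an AP-1 site, 10.7% the SOX site and 13.0% the E-box. These matches describe the letters in the window and were not related to any readout.

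The single-cell table held 990 cells and 9846289 unique molecular identifiers (UMIs), with 3284 to 57119 UMIs per cell. Clustering without the members gave 11 clusters. The tanycyte cluster (177 cells, median 7886 UMIs) had Rax, Scn7a and Col25a1 at 3 times the level of other cells or more, together with 7 of 8 further tanycyte markers. An ependymal-like cluster of 50 cells, led by the ciliary genes Cfap126 and Dynlrb2, also carried 5 of those 8 markers and had Rax at 611 CPM (a gene's UMIs per 1000000 UMIs of the cluster). Tanycytes parted at a finer resolution of 1.2 into groups with Rax at 657 and 463 CPM, so Rax alone did not separate them from the ependymal-like cells. Of 222 cells with a UMI of Rax, Scn7a and Col25a1 each, 169 lay in the tanycyte cluster and 38 in the ependymal-like one. The other clusters were erythrocyte-like, VLMC-like (vascular and leptomeningeal cells, with all 7 endothelial and all 5 mural markers as well), macrophage- or microglia-like, OPC-like (oligodendrocyte precursor cells), PTC-like (pars tuberalis cells), neuron-like, oligodendrocyte-like and NK- or T-cell-like. Of the 15 remaining cells with a UMI of Rax, Scn7a and Col25a1 each, 8 lay in the PTC-like cluster of 53 cells. A cluster of 23 cells led by Krtdap, Nov and Slc47a1 stayed unnamed, and no cluster met the rule for astrocytes, whose markers stood highest in number in the ependymal-like cluster (4 of 9).

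In the tanycyte cluster, 6 of the 9 members (Slc1a2, Slc1a3, Gja1, Aqp4, Mlc1 and Slc4a4) had a level at least 3 times that of the other cells combined, against 6.75% of 13125 genes with at least 20 UMIs. Gjb6 stood at the inverse of that fold or less, as did 13.7% of genes, and Glul and Kcnj10 lay between. The median log2 ratio of tanycytes over other cells (pseudocount 1 CPM) was 2.29 over the members and 0.38 over all genes. Aqp4 and Mlc1 were highest in ependymal-like cells, and Slc1a2 did not differ between tanycytes and OPC-like cells beyond counting error. By level alone, only Slc1a2 and Slc1a3 were highest of the 11 clusters in the tanycyte cluster, against 8.53% of genes. That count was 1 to 4 under other clusterings, and 3 at a resolution of 0.4, where the ependymal-like cells joined the tanycyte cluster and the log2 ratio over other cells went from 3.30 to 4.07 for Slc1a3, from 3.02 to 4.86 for Mlc1 and from 2.29 to 3.55 for Aqp4. With 1 library there is no replicate, so no test was run across cells, and the exact 95% intervals given in parentheses cover counting error only.

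**Figure D1:**
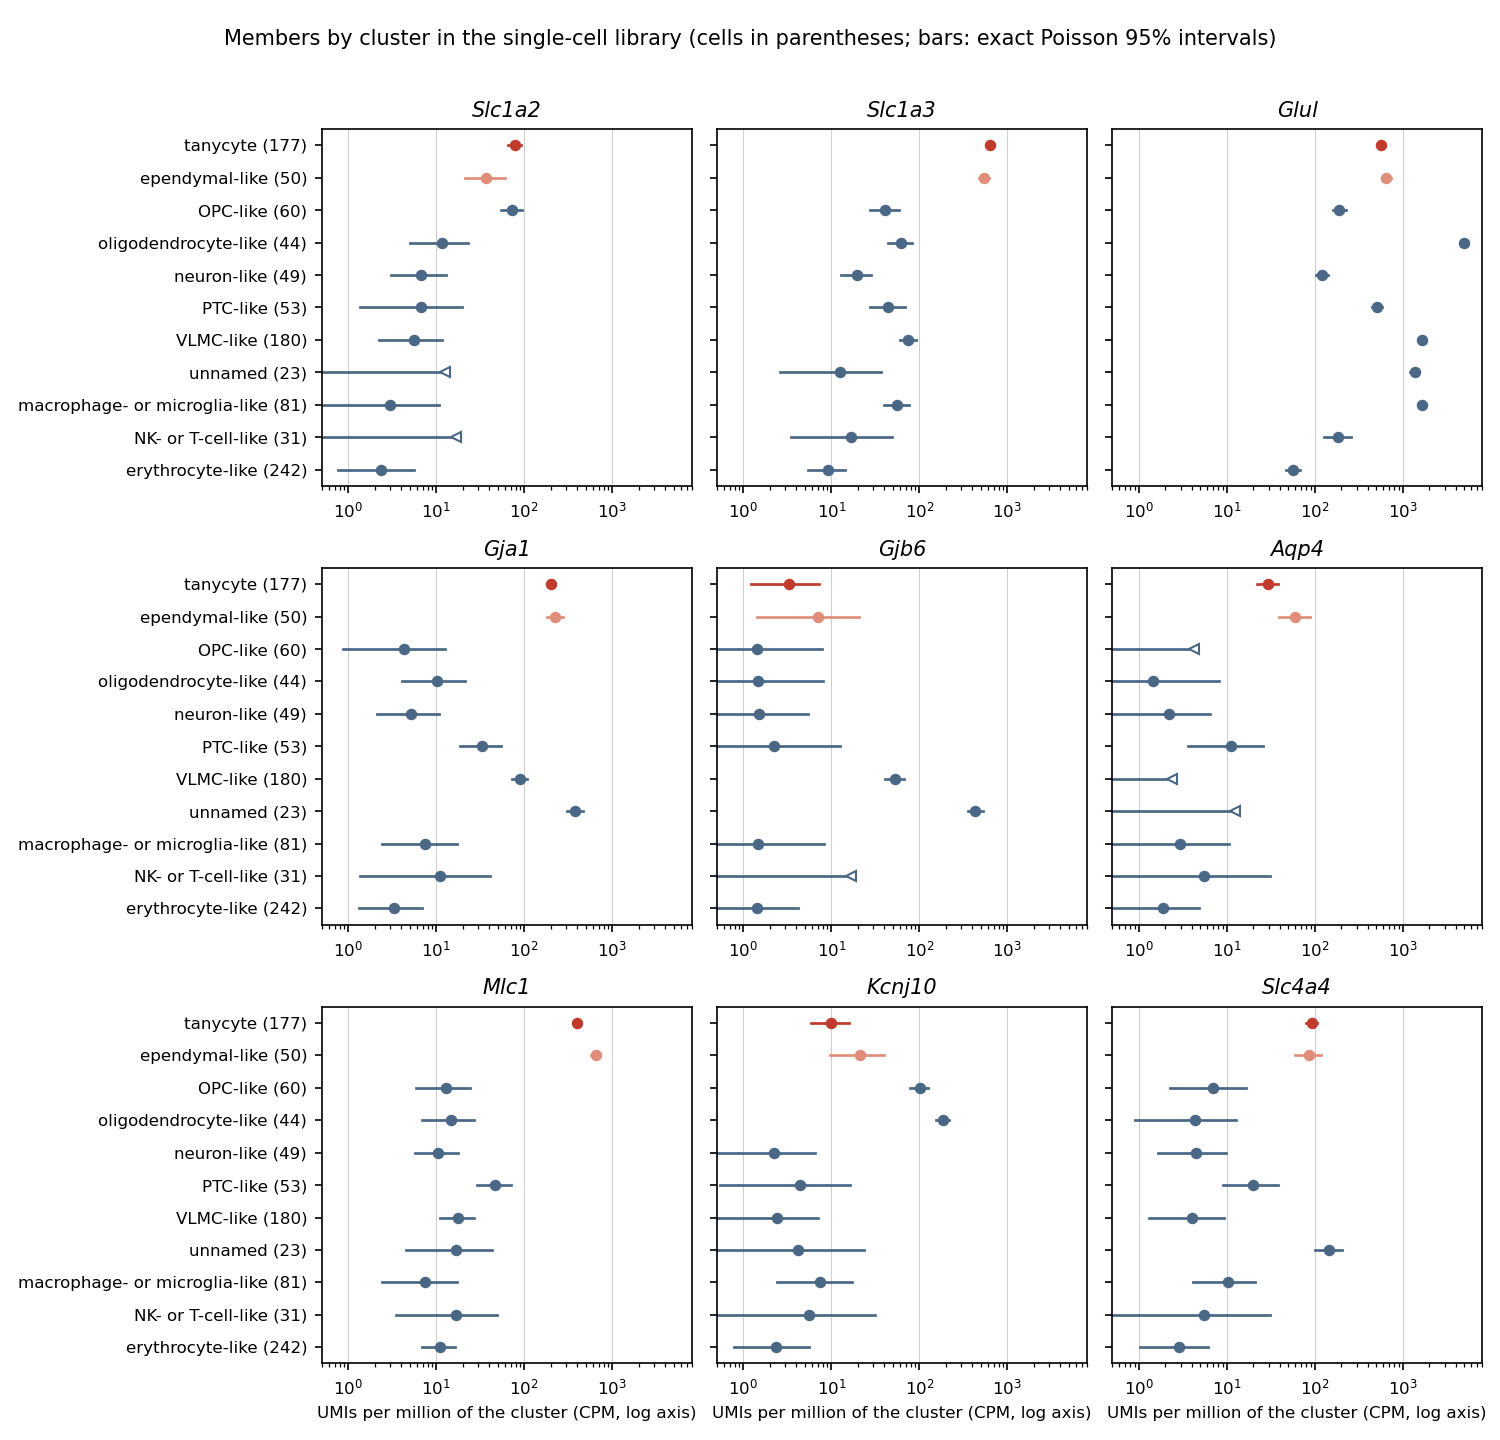
CPM (log axis) of each member in the 11 clusters of the single-cell library, with the number of cells in parentheses, the tanycyte cluster in red, the ependymal-like cluster in pale red and exact Poisson 95% intervals as bars; an open triangle is the level of 3 UMIs where no UMI was found. Slc1a3 and Mlc1 separate the tanycyte and ependymal-like clusters from the rest, the Aqp4 interval of tanycytes overlaps those of PTC-like and NK- or T-cell-like cells, Gjb6 is highest in the unnamed cluster at 432 CPM, and Kcnj10 is highest in oligodendrocyte-like and OPC-like cells.

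Among the glutamate genes, Slc1a3, the carrier of radial glia and tanycytes, was at 632 CPM (596 to 670.2) in tanycytes and 548 CPM (481 to 623) in ependymal-like cells. Its tanycyte level was 10.0 times that of all other cells (8.997 to 11.1) and 1.15 times that of ependymal-like cells, a ratio whose interval (1.001 to 1.33) nearly reaches equality. The VLMC-like cluster followed at 74.9 CPM, and the remaining 8 clusters lay between 9.04 and 61.2 CPM. By level, Slc1a3 thus set the wall-lining cells apart, and 69.1% of its UMIs came from the tanycyte cluster. It was found in 99.4% of tanycytes and in 7.85% of erythrocyte-like cells, which should lack it and had a similar median depth of 7707 UMIs. Thinned to 3000 UMIs per cell, the shares were 82.5% and 2.89%. Detection was not confined to the wall, with 63.6% of oligodendrocyte-like, 40.8% of neuron-like and 32.2% of VLMC-like cells (18.2%, 8.16% and 20.6% thinned).

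Slc1a2, the main carrier of mature astrocytes, was at 77.8 CPM (65.4 to 91.8) in tanycytes and at 72.3 CPM (53.9 to 95.1) in OPC-like cells, 2 levels that did not differ beyond counting error (ratio 1.08, 0.775 to 1.51). Ependymal-like cells had 37.2 CPM (21.3 to 60.4), 0.478 times the tanycyte level (0.266 to 0.804). That level rested on 16 UMIs in 5 of 50 cells, and its interval does not cover differences between cells. Every other cluster was at 11.7 CPM or less, and NK- or T-cell-like cells and the unnamed cluster had no UMI, which allows up to 16.8 and 12.6 CPM (the level of 3 UMIs, about the one-sided 95% limit of a count of 0). Slc1a2 therefore had a pair of peaks, 1 in tanycytes and 1 in OPC-like cells. At a finer resolution of 1.2 the OPC-like cells parted into 38 cells led by Top2a and C1ql1, with Slc1a2 at 125 CPM (92.2 to 165), and 22 cells led by Enpp6 and Fyn, with 6.41 CPM (0.777 to 23.2). The OPC markers Pdgfra and Cspg4 were at 542 and 158 CPM in the 38 cells and at 6.41 and 3.21 CPM in the 22 cells. A further OPC marker, Gpr17, was at 326 CPM in the 38 cells and 1260 CPM in the 22 cells. Slc1a2 was found in 37.9% of tanycytes, 43.3% of OPC-like cells and 2.07% of erythrocyte-like cells, or 16.9%, 21.7% and 1.24% when thinned.

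Glul, which makes glutamine from glutamate and ammonia, had a different order. Oligodendrocyte-like cells were highest at 4932 CPM (4767 to 5101), with a UMI in 44 of 44 cells. Macrophage- or microglia-like cells at 1667 CPM (1571 to 1767) and VLMC-like cells at 1664 CPM (1593 to 1737) came next and did not differ beyond counting error, and the unnamed cluster had 1372 CPM. Ependymal-like cells (653 CPM, 579 to 734) and tanycytes (563 CPM, 529 to 599) followed, and tanycytes stood at 0.576 times the level of all other cells (0.539 to 0.615). Erythrocyte-like cells had 57.6 CPM, and 34.7% of them had a UMI of Glul, so a UMI alone marks no cell as expressing it. Of the 50-base stretches of Glul transcripts, 11.9% also occur in other genes, among them Glns-ps1, against 1.53% or less for the other members.

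The connexins diverged in the tanycyte and ependymal-like clusters, while both were highest in the unnamed cluster. Over the 11 clusters their log2 levels had a Pearson r of 0.73. Gja1, the principal astroglial connexin, was at 203 CPM (183 to 225) in tanycytes and 225 CPM (183 to 275) in ependymal-like cells, with no difference beyond counting error, and at 382 CPM (307 to 469) in the unnamed cluster. VLMC-like cells had 88.6 CPM and PTC-like cells 33.4 CPM, and the remaining 6 clusters lay between 3.33 and 11.2 CPM. Gja1 was found in 80.8% of tanycytes (44.1% thinned) and in 2.48% of erythrocyte-like cells (0.826% thinned).

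Gjb6, the second connexin of grey matter astrocytes, was close to the background of the library in the cells that held Gja1 at the ventricular wall. Tanycytes had 6 UMIs among 177 cells, or 3.33 CPM (1.22 to 7.26), and 3.39% of them had a UMI (1.25 to 7.23%), close to the 1.24% of erythrocyte-like cells (0.256 to 3.58%). The unnamed cluster had 432 CPM (353 to 524) and 55.4% of all Gjb6 UMIs, and VLMC-like cells had 52.4 CPM (40.4 to 66.7) and 34.9% of them. Gjb2, a connexin whose gene lies near Gjb6 on chromosome 14, was also highest in the unnamed cluster, at 214 CPM, with 24.2 CPM in VLMC-like cells and no UMI in tanycytes.

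Of the water, ion and volume genes, Aqp4, the water channel of end-feet, was sparse, with 53 UMIs in tanycytes (29.5 CPM, 22.1 to 38.5) and 26 in ependymal-like cells (60.4 CPM, 39.5 to 88.5). The ependymal-like level was 2.05 times the tanycyte level (1.23 to 3.34), and PTC-like cells followed at 11.1 CPM (3.62 to 26.0), an interval that overlaps that of tanycytes. VLMC-like and OPC-like cells had no UMI, which allows up to 2.42 and 4.25 CPM (3 UMIs). Aqp4 was found in 23.2% of tanycytes, 24.0% of ependymal-like cells (12 of 50) and 1.65% of erythrocyte-like cells. The higher ependymal-like level thus came with a like share of cells, and its interval does not cover differences between cells. When thinned, the shares were 5.65%, 10.0% and 0.826%, and the log2 ratio of Aqp4 in tanycytes over other cells was then 1.305, below 3 times.

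Mlc1, a membrane protein that helps astrocytes regulate their volume, followed the same order at higher counts. It was at 653 CPM (579 to 734) in ependymal-like cells and 403 CPM (375 to 434) in tanycytes, a ratio of 1.62 (1.41 to 1.86). PTC-like cells had 46.8 CPM, and the remaining 8 clusters lay between 7.37 and 17.7 CPM. Together the ependymal-like and tanycyte clusters held 25.1% and 64.9% of its UMIs, and it was found in 91.5% of tanycytes against 8.68% of erythrocyte-like cells.

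Kcnj10, the inward-rectifying channel that carries glial potassium uptake, was low in tanycytes. It was at 10.0 CPM there (5.93 to 15.8), 18 UMIs in 16 cells, and at 20.9 CPM (9.56 to 39.7) in ependymal-like cells, levels that did not differ beyond counting error. Oligodendrocyte-like cells had 184 CPM (153 to 219) and OPC-like cells 101 CPM (78.6 to 127), and together they held 51.6% and 29.1% of its UMIs. Kcnj10 was found in 88.6% of oligodendrocyte-like cells, 65.0% of OPC-like cells, 9.04% of tanycytes and 2.07% of erythrocyte-like cells. Its channel partner Kcnj16 had 16 UMIs in all and no UMI in tanycytes, with 19.9 CPM in OPC-like cells.

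Slc4a4, which moves bicarbonate with sodium and so sets glial pH, was at 92.8 CPM (79.3 to 108) in tanycytes, 86.0 CPM (60.5 to 119) in ependymal-like cells and 147 CPM (102 to 204) in the unnamed cluster. The former pair did not differ beyond counting error, and the unnamed cluster was above tanycytes (tanycyte ratio 0.632, 0.437 to 0.938). PTC-like cells had 20.1 CPM, and the remaining 7 clusters had 10.3 CPM or less. Slc4a4 was found in 53.7% of tanycytes (23.7% thinned) and 2.48% of erythrocyte-like cells (0.826% thinned).

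Within tanycytes, members differed between 2 groups that a resolution of 1.2 separated without using them: 98 cells led by Ager, Sfrp5 and Adm, and 78 cells led by Cyr61, Fndc3c1 and Hes1, with Dio2, which activates thyroid hormone, also among the leading genes of the latter. Aqp4 was at 58.5 CPM (41.8 to 79.7) in the former and 11.7 CPM (6.23 to 19.999) in the latter. Kcnj10 was at 20.5 CPM (11.2 to 34.4) and 3.60 CPM (0.980 to 9.21). Mlc1 (565 and 306 CPM), Slc4a4 (126 and 72.9 CPM) and Slc1a3 (740 and 568 CPM) were also higher in the former with intervals that do not overlap. In the opposite direction, Glul was at 458 CPM (409 to 512) in the former and 631 CPM (585 to 679) in the latter. The intervals overlapped for Slc1a2 (59.99 and 89.1 CPM), Gja1 (209 and 200 CPM) and Gjb6 (4.39 and 2.70 CPM). Ependymal-like cells had Aqp4 at 60.4 CPM (39.5 to 88.5) and Mlc1 at 653 CPM (579 to 734). For both genes their interval overlapped that of the 98 cells (Mlc1 510 to 624) and lay above that of the 78 cells (Mlc1 274 to 340). The 98 cells had a median of 6603 UMIs and the 78 cells 12198. With every cell thinned to 3000 UMIs, Slc1a3 was at 803 and 529.9 CPM, Mlc1 at 541 and 346 CPM, Slc4a4 at 112 and 68.4 CPM and Glul at 446 and 692 CPM, so these 4 kept their direction, while Aqp4 and Kcnj10 were then too sparse in the 78 cells to compare.

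**Figure D2:**
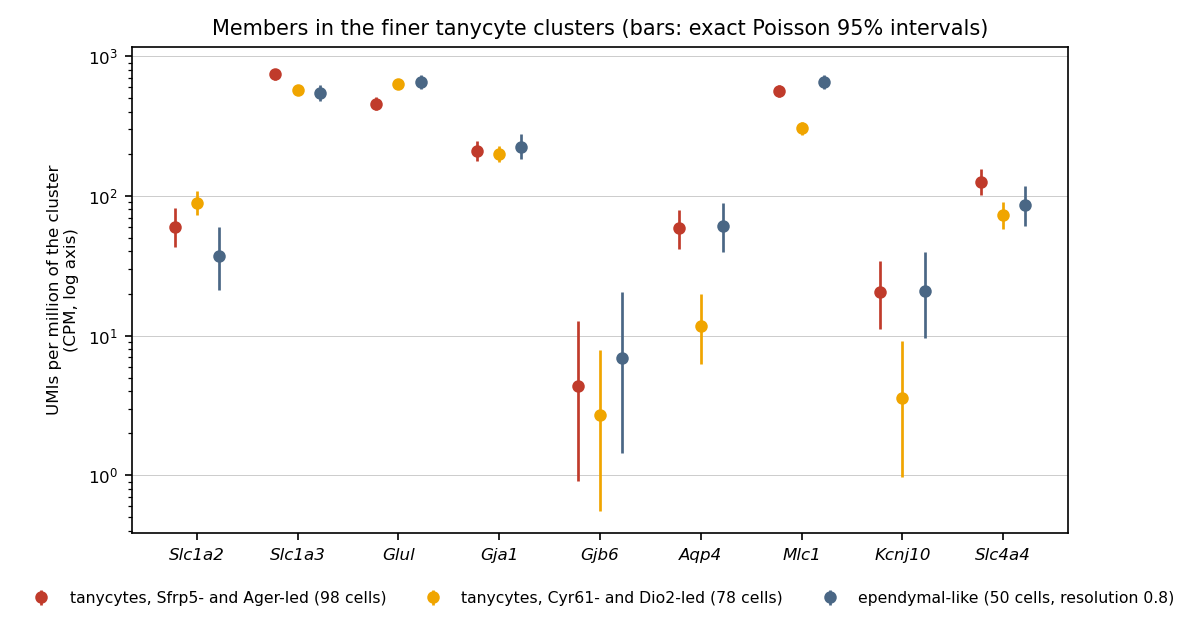
CPM (log axis) of each member in the finer tanycyte clusters of 98 cells (red) and 78 cells (yellow) and in the 50 ependymal-like cells (blue), with exact Poisson 95% intervals as bars. Aqp4, Kcnj10 and Mlc1 are lower in the 78 cells, at 11.7, 3.60 and 306 CPM, while Gja1 lies near 200 CPM in all of them.

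Cells carried several members at once. A median of 5 of the 9 had a UMI in a tanycyte and 4 in an ependymal-like cell, or 3 in both after thinning to 3000 UMIs, against 3 in OPC-like, oligodendrocyte-like and unnamed cells (1, 2 and 2 thinned) and 0 in erythrocyte-like cells. Over the 11 clusters, the members whose log2 levels were most alike were Slc1a3 and Mlc1 (Pearson r = 0.85), Gja1 and Slc4a4 (0.85) and Aqp4 and Mlc1 (0.85), and the least alike were Gjb6 and Aqp4 (-0.34). These values describe 11 clusters of the same library, which differ in size and depth. By the same measure, the genes most like each member were Sox2 (r = 0.95) and Lrrn2 (0.92) for Slc1a2, Eva1a (0.96) and Nkx2-4 (0.94) for Slc1a3, and Pmp22 (0.91) and Slc4a2 (0.90) for Glul. For Gja1 they were Gm14964 and Il17rc (both 0.95), for Gjb6 Tspan8 (0.95) and Foxc2 (0.94), and for Aqp4 Plcd4 (0.96) and Gm29508 (0.90). Mlc1 was most like Col25a1 and Frzb (both 0.96), Kcnj10 most like Poc1a (0.95) and Olig1 (0.94), and Slc4a4 most like Ildr2 (0.95) and Dkk3 (0.92).

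A wider list of 36 genes of astroglial transport and coupling held genes on both sides. Of 30 with at least 20 UMIs, 7 stood at 3 times the CPM of other cells or more in the tanycyte cluster (6.75% of all genes with as many UMIs) and 8 at the inverse of that fold or less (13.7%), and the median log2 ratio over the whole list was -0.18, against 0.38 over all genes. The 7 comprised the amino acid carriers Slc7a10 (62.2 against 6.34 CPM in other cells) and Slc38a3 (45.6 against 5.34 CPM), the sodium pump subunit Atp1b2 (133 against 30.8 CPM), the Mlc1 partner Hepacam (101 against 24.5 CPM), Aqp11, Dtna and Trpv4. The 8 included Kcnk2, Slc1a1, Gjc3, Gjb2, Gjb1 and Aqp1. Of these, the myelin connexins Gjb1 and Gjc3 were at 412 and 672 CPM in oligodendrocyte-like cells and at 2.78 and 6.67 CPM in tanycytes. The GABA carrier Slc6a11 was highest in ependymal-like cells, at 60.4 CPM against 3.33 CPM in tanycytes.

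In bulk ME, 7 of the 9 members stood higher in all 4 mutant libraries than in all 3 controls (Slc1a2, Slc1a3, Gja1, Aqp4, Mlc1, Kcnj10 and Slc4a4), against 5.83% of 20466 tested genes. None passed edgeR's quasi-likelihood test at an adjusted p of 0.05, and neither did any other gene (0% of those tested in either direction). At an unadjusted p under 0.05, 7 of 9 members were higher in mutants, against 4.23% of genes, and none lower, against 3.89%. DESeq2, run as an alternative, called 3 members higher: Slc4a4 (adjusted p = 0.00359), Kcnj10 (0.00803) and Slc1a2 (0.0224), against 0.985% of 25477 genes higher and 0.432% lower. limma-voom called 0. The median log2 fold change over the members was 1.06, and over all tested genes 0.13, and 7 of 9 members had a log2 fold change of 0 or more, as did 56.7% of genes. All 9 members passed the filter on low counts. In whole tissue, more cells of a type and more RNA per cell cannot be told apart.

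**Figure D3:**
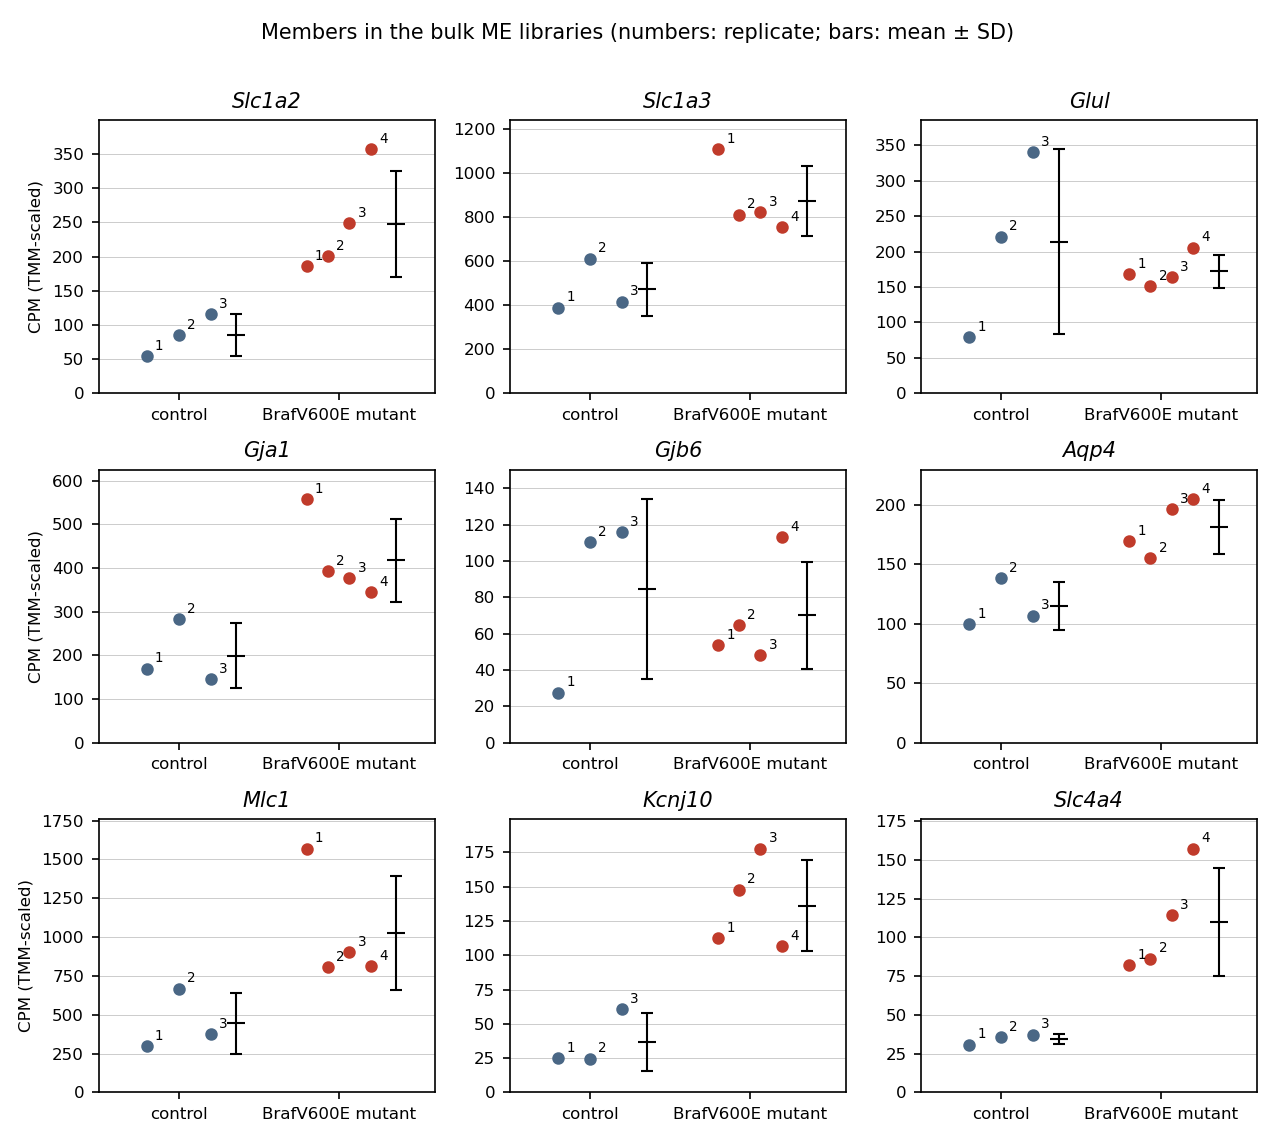
TMM-scaled CPM of each member in the 3 control (blue) and 4 mutant (red) ME libraries, numbered by replicate, with the mean ± SD of each group as a bar on a linear axis from 0. The groups overlap for Glul and Gjb6 and not for the other 7 members; mutant 1 stands apart for Mlc1 at 1569 CPM.

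For Slc1a2, the levels were 54.6, 84.6 and 116 TMM-scaled CPM in controls 1 to 3 and 186, 200.4, 248.5 and 357 CPM in mutants 1 to 4. The highest control lay below the lowest mutant. The log2 fold change was 1.54 ± 0.36 (SE, n = 3 and 4), with an adjusted p of 0.359 by edgeR.

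Slc1a3 was at 389, 612 and 416 CPM in controls and at 1108, 811, 824 and 755 CPM in mutants, with control 2 the closest to the mutants. Its log2 fold change was 0.89 ± 0.30 (edgeR adjusted p = 0.491). The share of Slc1a2 in the summed counts of both carriers was 12.3, 12.1 and 21.8% in controls and 14.4, 19.8, 23.2 and 32.1% in mutants, and the groups overlapped. The log2 ratio of Slc1a2 to Slc1a3 differed by 0.66 (-2.51 ± 0.58 in controls, -1.85 ± 0.62 in mutants, SD), with p = 0.171 in a 2-sided exact permutation test whose smallest possible p is 0.0571.

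Glul, in contrast, was at 79.4, 221 and 341 CPM in controls and 169, 151, 164 and 206 CPM in mutants, so that the mutants lay within the range of the controls. Control 1 was lowest of all 7 libraries and control 3 highest. The log2 fold change was -0.31 ± 0.42 (edgeR adjusted p = 0.897) and turned to 0.21 without control 3.

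Gja1 was at 170, 284 and 146 CPM in controls and at 558, 391.9, 376 and 344 CPM in mutants, with no overlap (log2 fold change 1.06 ± 0.33, edgeR adjusted p = 0.444). Gjb6 was at 27.6, 111 and 116 CPM in controls and at 53.8, 64.8, 48.3 and 113 CPM in mutants. Control 1 was again lowest, and the groups overlapped fully (log2 fold change -0.27 ± 0.48, edgeR adjusted p = 0.927), with a value of 0.03 without control 3. Gjb6 made up 14.0, 28.0 and 44.3% of the summed counts of the pair in controls and 8.79, 14.2, 11.4 and 24.8% in mutants. The log2 ratio of Gjb6 to Gja1 was -1.44 ± 1.15 in controls and -2.63 ± 0.76 in mutants (SD), a difference of -1.196 with p = 0.171 in the 2-sided exact permutation test.

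Aqp4 had the narrowest gap of the 7 members that did not overlap, with 99.8, 138 and 107 CPM in controls and 169, 155, 196 and 205 CPM in mutants (log2 fold change 0.66 ± 0.27, edgeR adjusted p = 0.555). Mlc1 was at 296, 669 and 375 CPM in controls and at 1569, 805, 905 and 814 CPM in mutants (1.196 ± 0.39, edgeR adjusted p = 0.463). Mutant 1 stood well above the other mutants for Mlc1, and all 4 lay above control 2.

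Kcnj10 was at 24.9, 24.6 and 60.8 CPM in controls and at 113, 148, 178 and 107 CPM in mutants, and had the largest log2 fold change of the members, 1.89 ± 0.40 (edgeR adjusted p = 0.267). Control 3 was more than the other controls combined, and without it edgeR gave an adjusted p of 0.0439 and a log2 fold change of 2.47. That fit called 16 of 23365 genes. With any other library left out, the edgeR adjusted p of Kcnj10 was 0.0905 to 0.839. Slc4a4 was the most even within controls, at 30.8, 35.9 and 37.2 CPM, and was at 82.1, 86.3, 114 and 157 CPM in mutants (1.67 ± 0.32, edgeR adjusted p = 0.198).

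Per kilobase of exon, Mlc1 was the highest member in every library, at 106 to 239 CPM per kilobase in controls and 287 to 560.2 in mutants, and Slc4a4 the lowest, at 2.85 to 3.44 and 7.59 to 14.5. Slc1a3 was at 45.6 to 71.6 CPM per kilobase in controls and 88.5 to 130 in mutants, and Slc1a2 at 4.16 to 8.85 and 14.2 to 27.2. Kcnj10 went from 4.55 to 11.3 CPM per kilobase in controls to 19.7 to 32.9 in mutants, and so stood near Aqp4 there (24.9 to 32.8). Smart-seq2 does not mark strand. The span of a gene on the opposite strand overlaps that of Slc1a2 (Gm13872), Glul (Teddm2) and Aqp4 (AC133525.2). Reads from any shared exon could not be told apart, and whether exons overlap was not examined.

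**Figure D4:**
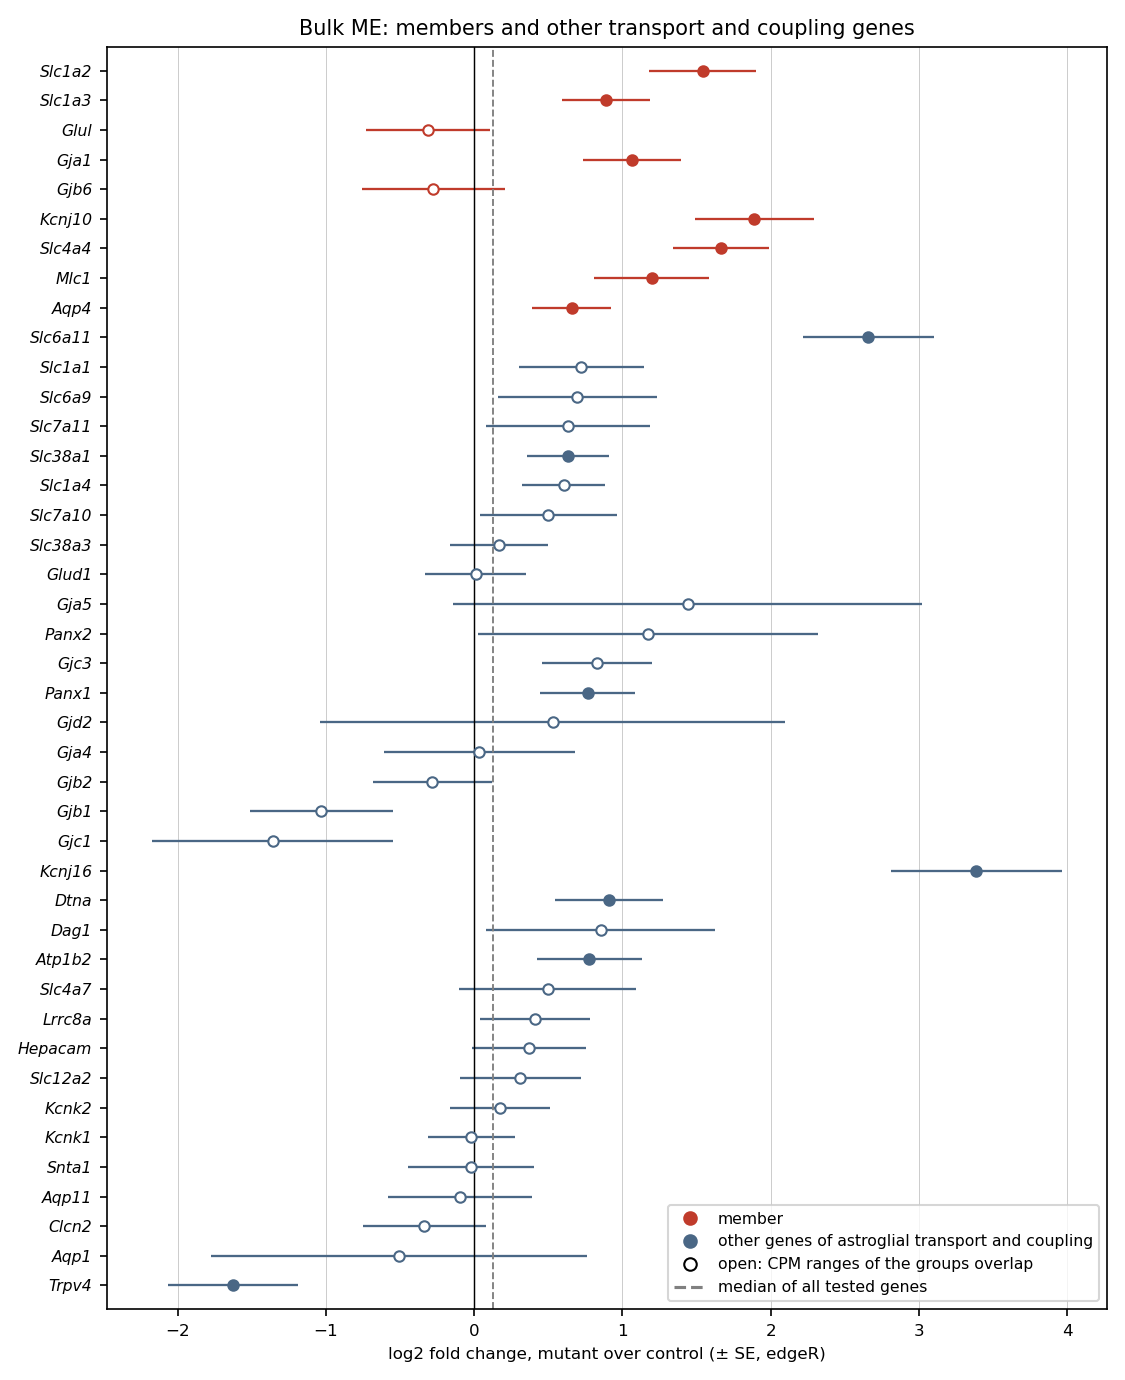
Log2 fold change of mutant over control ME (± SE, edgeR) for the 9 members (red) and other genes of astroglial transport and coupling (blue), with open points where the CPM ranges of the groups overlap and a dashed line at 0.13, the median of all tested genes. Kcnj16 and Slc6a11 lie farthest to the right, at 3.38 and 2.66, and Trpv4 farthest to the left, at -1.63.

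Of the 36 other genes, 8 were higher in all mutants than in all controls (5.83% of genes tested) and 2 were lower (3.18%), with a median log2 fold change of 0.50 and 0 calls by edgeR. Kcnj16, which forms channels with Kcnj10, was at 11.2, 10.6 and 1.63 CPM in controls and at 76.6, 81.2, 88.0 and 79.0 CPM in mutants, a log2 fold change of 3.38 ± 0.58 (edgeR adjusted p = 0.130). The GABA carrier Slc6a11 was also higher in every mutant library (2.66 ± 0.44, edgeR adjusted p = 0.127). It was at 7.91 to 24.3 CPM in controls and 73.5 to 94.2 CPM in mutants. The cation channel Trpv4 was at 21.6 to 37.0 CPM in controls and 4.47 to 12.9 CPM in mutants (-1.63 ± 0.44, edgeR adjusted p = 0.411). The genes higher in every mutant library also included Slc38a1, Panx1, Atp1b2 and Dtna. DESeq2 called 5 of the 36, among them Kcnj16 and Slc6a11 higher and Trpv4 lower.

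Marker levels of other cell types differed alongside these members. The counts below stand beside 5.83% of 20466 tested genes higher in all mutants than in all controls, and 3.18% lower. Of 7 OPC markers, 4 did not overlap and were higher in mutants, with a summed level of 86.5 to 130 CPM in controls and 236 to 798 CPM in mutants, and Cspg4 and C1ql1 at 0 in at least 1 library. The OPC markers had a median log2 fold change of 2.68, and 6 were higher at an unadjusted p under 0.05 by edgeR, against 4.23% of genes. In single cells, Slc1a2 did not differ between the whole OPC-like cluster and tanycytes beyond counting error, and these were its highest clusters. At the finer resolution of 1.2, the 38 OPC-like cells with high Pdgfra had Slc1a2 at 125 CPM (92.2 to 165). The tanycyte cluster had 77.8 CPM (65.4 to 91.8), and the 22 OPC-like cells low in Pdgfra had 6.41 CPM (0.777 to 23.2). Kcnj10 had its second-highest single-cell level in OPC-like cells, behind oligodendrocyte-like cells. Of 9 astrocyte markers, 3 were higher throughout, with sums of 1533 to 5455 and 2377 to 5405 CPM and none at 0. Of 8 oligodendrocyte markers, 1 was lower throughout (5966 to 18815 and 3725 to 7362 CPM, none at 0). Their median log2 fold change was -1.29, and 7 were lower at an unadjusted p under 0.05 by edgeR, against 3.89% of genes. Oligodendrocyte-like cells had the highest level of Glul and also of Kcnj10, which was higher in every mutant library. Of 6 VLMC markers, 3 were lower throughout (1431 to 3194 and 658 to 934 CPM, Igf2 at 0 in at least 1 library). VLMC-like cells held 34.9% of Gjb6 UMIs in single cells, behind the unnamed cluster with 55.4%. Of 7 ependymal markers, 0 were higher throughout and 1 lower (110 to 226 and 107 to 176 CPM, none at 0). Their median log2 fold change was -0.90, while Aqp4 and Mlc1, highest in ependymal-like cells, were higher in every mutant library. The 3 genes that set tanycytes had sums of 275 to 574 CPM in controls and 241 to 450.03 CPM in mutants with each gene overlapping and a median log2 fold change of -0.49, and Rax, the driver gene of the Cre, had a log2 fold change of 0.23 ± 0.66. Of these 3 genes, 1 was lower at an unadjusted p under 0.05 by edgeR. Of the 8 further tanycyte markers, 2 were higher throughout and none lower, with sums of 739 to 904 and 764 to 1089.7 CPM, a median log2 fold change of 0.24 over the 7 tested and Mia at 0 in at least 1 library. At an unadjusted p under 0.05 by edgeR, 3 of these markers were higher and 1 was lower. The part of these shifts in the levels of the members was not tested. Controls 2 and 3 and mutant 1 also had the fewest detected genes (17874 to 25910, against 34942 to 40852 in the other 4 libraries). With that number as a covariate, 6 members had an unadjusted p under 0.05 by edgeR, as did 1241 of 20466 genes in either direction. At an adjusted p of 0.05 edgeR then called 0 members and 1 gene in all.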

How the data were processed

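The members and the gene lists were chosen with earlier results of these data known. For single cells, the authors aligned reads and counted UMIs with Cell Ranger 2.0.1 on mm10 (per the submitters' processing notes; the study's methods name a later release and an Ensembl reference) and deposited raw UMI counts. For bulk Smart-seq2 libraries, the authors deposited raw read counts per Ensembl gene, and the aligner and counter are not given in the sources used here.

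UMI counts were log-normalized in Seurat 5.3.0 (to 10000 per cell), and variable genes had a mean of 0.02 to 8 and a dispersion of 0.5 or more. Of 4844 variable genes, 29 listed genes were left out, and 4815 entered 20 components and clustering at a resolution of 0.8. A cluster took a name when at least 3 markers stood at 3 times the CPM of other cells and a marker was among its top 10 genes or the whole list passed, a rule set after the data were seen. A tanycyte cluster needed Rax, Scn7a and Col25a1 at that fold. Scrublet (scanpy 1.11.5, expected rate 0.06) called 3 cells doublets, 0.303%, and they were kept. Levels are summed UMIs per 1000000 UMIs of a cluster (CPM) with exact Poisson intervals. Genes with at least 20 UMIs formed the background, and ratios on the log2 scale used a pseudocount of 1 CPM. The likeness of patterns was Pearson's r of log2(CPM + 1) over clusters for genes with at least 100 UMIs.

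Bulk counts were fitted with edgeR 4.0.16 (R 4.3.3, TMM, filter on low counts by group, quasi-likelihood test, Benjamini-Hochberg adjustment over all tested genes, threshold 0.05), with no covariate. Ratios within a library (counts plus 0.5) were tested by the exact permutation test over 35 splits. Alternatives were DESeq2 1.42.0, limma-voom (limma 3.58.1), other scalings and filters, the replicate number as a block, the number of detected genes as a covariate, edgeR's later method, each library left out, and, in single cells, other resolutions, components and cell sets. The pooling of the tanycyte and ependymal-like clusters and the overlap of the groups under other scalings were added after the data were seen. All scripts that test many genes were tested on simulated data. A few genes of the wider list are not reported here by name. The genes named were the members, the rest of the wider list, the marker lists and the genes with the likest patterns over clusters. Total counts per bulk library ran from 4928456 to 13816596. Intervals cover counting error only. Shared reads were gauged by the 50-base stretches of a gene's transcripts (GENCODE M21) found in other genes.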

Additional observations from a re-analysis of the deposited data

Results flagged for a closer look

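Among 45 genes (the 9 members and the 36 other genes of transport and coupling), 7 had a library in the group of 4 mutants that stood farther from the others than Dixon's 95% critical value allows, and chance flags about 1 in 20 groups. Only 1 of the 7 was a member. Mlc1 was at 1569 CPM in mutant 1, against 805 to 905 CPM in the other mutants. Its log2 fold change stayed between 0.94 and 1.70 over 16 alternatives, those without mutant 1 included. Mutant 1 was also apart for the myelin connexin Gjb1 (45.9 CPM) and the aquaporin Aqp11 (29.0 CPM). Mutant 4 was apart for the amino acid carrier Slc1a4, at 92.9 CPM below the others, and for the connexin Gjb2, at 40.9 CPM above them. Panx2 was at 11.2 CPM in mutant 2, above the others, and the potassium channel Kcnk2 at 21.0 CPM in mutant 3, below them. No cause was tested.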

How the results depend on the processing

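Depth limits the sparse members most: 3 UMIs are 1.67 CPM in the tanycyte cluster, and one pooled library gives no spread between mice. DESeq2 called 3 members and 5 other genes, no filter on low counts 2 and 3, and edgeR's later method 0 and 2. Leaving out each library in turn gave 0 to 1 members (Kcnj10, without control 3) and 0 to 1 other genes (Slc6a11 without control 1, Kcnj16 without control 3). The other scalings, limma-voom, a filter of 10 counts in every library and the detected-genes covariate called 0 of either. The cause of these differences was not tested. Over all genes, DESeq2 called 361, no filter 240, edgeR's later method 25 and a filter of 10 counts 13. Library sizes alone called 3, upper-quartile scaling 1, the detected-genes covariate 1 and limma-voom 0, and leaving out a library gave 0 to 45. The median log2 fold change of all genes was 0.13 with TMM, 0.25 with library sizes alone and 0.64 with DESeq2 over its own genes. The direction held in all 16 alternatives for the other 7 members, and reversed for Glul and Gjb6 with the covariate (0.70 and 0.63) and without control 3 (0.21 and 0.034), with a range over single libraries left out of -0.73 to 0.21 and -0.72 to 0.034. With the replicate number as a block, 0 members, 0 other genes and 0 genes in all were called. Same-numbered libraries deviated from their group means with correlations of -0.45, -0.01 and -0.23. Deviations from the mean of 3 or 4 libraries are not independent, so these values cannot tell whether such libraries share more than a number. The log2 ratio of Slc1a2 to Slc1a3 differed by 0.40 to 0.99 with a library left out, and that of Gjb6 to Gja1 by -1.79 to -0.64. In single cells, 6 members stood at 3 times the CPM of other cells under all alternatives but thinning (5, without Aqp4). Of 90 log2 ratios of single members under alternatives, 28 moved beyond counting error, and none changed sign. The ratio ran from 3.24 to 4.07 for Slc1a3, 2.87 to 4.86 for Mlc1, 1.305 to 3.61 for Aqp4 and -1.54 to -0.64 for Kcnj10, and moved by less than 1.5 times for the others. The members highest in a tanycyte cluster numbered 1 at a resolution of 1.2, 3 at a resolution of 0.4 or with 10 components, 2 with 30 components or without doublets, and 4 with the listed genes kept for clustering or with the ependymal-like cluster pooled, an alternative chosen after seeing the data.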
